A study of Mus musculus with 483 samples.

Results

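The genes described here supply cells with amino acids, or answer to the transcription factor ATF4 when that supply runs short. They are 37 of the 46078 genes in the count table: 10 amino acid carriers, 11 enzymes of serine, one-carbon, proline and asparagine synthesis, 6 genes of the ATF4 stress response and 10 cytosolic tRNA synthetases. They were chosen by name, with earlier results of these data known, and all 37 were read in 10% or more of the Ctrl or of the treated cells. Their reads came from single mouse cells of the aorta with the gonads and mesonephros around it (AGM), sorted as CD31+ kit+ CD45- and sequenced by Smart-seq2. Of 483 cells, 49.5% were labelled Ctrl and 50.5% aDll4-treated, and the authors had placed them in 7 clusters that they call ICGS clusters. The title names Dll4, a ligand of the Notch receptors, but the labels do not explain aDll4, nor do they give a genotype, strain, embryo age, dose or time.

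When amino acids are short, uncharged tRNA activates a kinase that phosphorylates the initiation factor eIF2, and the Atf4 transcript is then translated better. ATF4 binds gene promoters at composite sites (CARE, a C/EBP-ATF response element) and raises transcription of amino acid carriers, biosynthetic enzymes and tRNA synthetases. Transcription factors of the Myc family, Mycn among them, also drive genes of biosynthesis. In the AGM, hemogenic endothelial cells of the aorta give rise to the first hematopoietic stem cells through clusters of cells in the vessel lumen.

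Because ATF4 acts through such sites, the start regions of the genes were searched for the letters TGATGNAA, the core of a CARE, on both strands. RefSeq promoter sequence on GRCm38.p6 was at hand for 31 of the 37 genes. The letters stood in the 250 bases before the start of 7 of these 31 (22.6%), against 3.91% of 27025 genes and 3.45% of 32851 start regions of the same length. The 7 were Chac1, Slc7a11, Asns, Gars, Aars, Pycr1 and Tars. Each is shown 5′ to 3′ on the gene's strand, with the matching letters in capitals, because ATF4 is known to bind sites with such letters. A match is a description of the letters and not of binding. Some of the genes were listed as known ATF4 targets, so a share above that of all genes could follow from the choice of list.
Chac1, chr2:119351023-119351082, plus strand: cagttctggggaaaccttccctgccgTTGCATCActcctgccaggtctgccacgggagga
Slc7a11, chr3:50443646-50443705, minus strand: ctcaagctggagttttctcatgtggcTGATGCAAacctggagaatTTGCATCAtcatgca
Asns, chr6:7693210-7693258, minus strand: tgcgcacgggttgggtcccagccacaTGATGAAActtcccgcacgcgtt
Gars, chr6:55037945-55038000, plus strand: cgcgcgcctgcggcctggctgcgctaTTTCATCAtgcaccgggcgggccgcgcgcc
Aars, chr8:111033704-111033763, plus strand: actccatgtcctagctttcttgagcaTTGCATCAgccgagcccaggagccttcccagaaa
Pycr1, chr11:120643818-120643877, minus strand: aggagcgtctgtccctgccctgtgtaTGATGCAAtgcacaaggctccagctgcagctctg
Tars, chr15:11399659-11399699, minus strand: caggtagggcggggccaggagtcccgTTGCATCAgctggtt
Slc7a11 held the letters on both strands within the printed stretch. The letters CACGTG, an E-box that Myc proteins can bind, stood in 3 of the 31 (9.68%; Aldh18a1, Aars and Iars), against 6.86% of all genes.

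A Ctrl cell had 136928 to 2870618 reads assigned to genes, with a median of 900286. A treated cell had 123097 to 2451790, with a median of 869802. No label names an embryo or culture, so each treatment was 1 sample, no test between treatments was possible, and no p-value is given. Levels are reads summed over the cells of a group and divided by the group's summed total (CPM), with exact 95% Poisson intervals. Treated and Ctrl levels are compared as a log2 ratio after adding 1 CPM to each. A gene counts as past the fold, higher or lower, where this ratio is at least 0.32 in size. Intervals cover counting error only: amplified reads are not independent molecules, and the spread between embryos is not in them. The numbers in the library names fall into 2 blocks, and each block was cut into runs of 96 consecutive numbers. Runs 1 to 4 form block 1 and runs 5 and 6 block 2, and both treatments are in every run. No label marks the runs, so they are not known to be batches. The runs hold 46, 46, 44, 40, 37 and 26 Ctrl cells and 46, 46, 39, 47, 30 and 36 treated cells. The treatments differed in sex within the blocks. No treated cell of block 1 was called Xist-positive and no treated cell of block 2 Y-positive. Ctrl cells were of both kinds, with 77 Y-positive and 85 Xist-positive in block 1 and 29 and 25 in block 2. The labels call the cells hematopoietic stem cells, but clusters 1 to 3 (395 cells) carried endothelial markers as groups. The 7 endothelial markers summed to 5678, 5188 and 4205 CPM in these clusters, and the 8 hematopoietic markers to 15.5, 22.2 and 130.8 CPM. The lowest single cells had 2775, 696 and 25.2 CPM of endothelial markers, so not every cell of cluster 3 carried them strongly. Single cells of cluster 3 reached 1758 CPM for hematopoietic and 12260 CPM for mesenchymal markers. Hematopoietic markers summed to 1311 CPM in cluster 6 and 9111 CPM in cluster 7, against 210 and 350 CPM for endothelial markers. In cluster 4 (22 cells) mesenchymal markers summed to 995 CPM, hematopoietic markers to 158.3 CPM and epithelial markers to 96.3 CPM, with medians over its cells of 944, 3.77 and 0.83 CPM. In cluster 5 (13 cells) mesenchymal markers summed to 12000 CPM.

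Per length of exon, Atf4 was the most abundant of the 37 in Ctrl cells, at 173.1 RPKM (CPM per kilobase). Slc3a2 followed at 131.9, Gars at 115.6, Asns at 89.9 and Nars at 59.4 RPKM. The least abundant were Slc7a11 at 0.273, Sesn3 at 0.580 and Atf5 at 0.603 RPKM. Together the 37 genes took 0.49% of the reads of Ctrl and 0.53% of those of treated cells.

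Across all cells, treated levels of the 37 genes were on balance slightly above Ctrl levels. The median log2 ratio was 0.15, against 0.012 over all 13417 genes that passed the same filter. Of the 37, 9 were past the fold and higher in treated cells, as were 10.8% of all genes, and 1 was past it and lower, as were 12.7%. The enzymes had 5 of 11 higher (median 0.31), the carriers 3 of 10 (median 0.10), the synthetases 1 of 10 (median 0.056), and of the 6 stress genes 1 was lower (median 0.084). The order of the groups was not the same in every set of cells. The enzymes had a median of 0.54 in block 1 and 0.12 in block 2, and in cluster 1 their 0.11 was below the 0.28 of the stress genes and the 0.14 of the carriers. Asking also for the same sign in both blocks left 7 higher and 1 lower, against 8.66% and 9.97% of all genes. Hematopoietic markers were higher too in treated cells, with 6 of the 7 that passed the filter past the fold and a median of 0.65. Their sum was 399 CPM in Ctrl (0 to 19887 over cells) and 717 CPM in treated cells (0 to 25448), and none of the 8 was at 0 in either. The 7 endothelial markers summed to 4662 and 3844 CPM. Ratios among the cells of 1 cluster are given further on, and beyond them the part of these cells in the ratios was not tested.

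**Figure D1:**
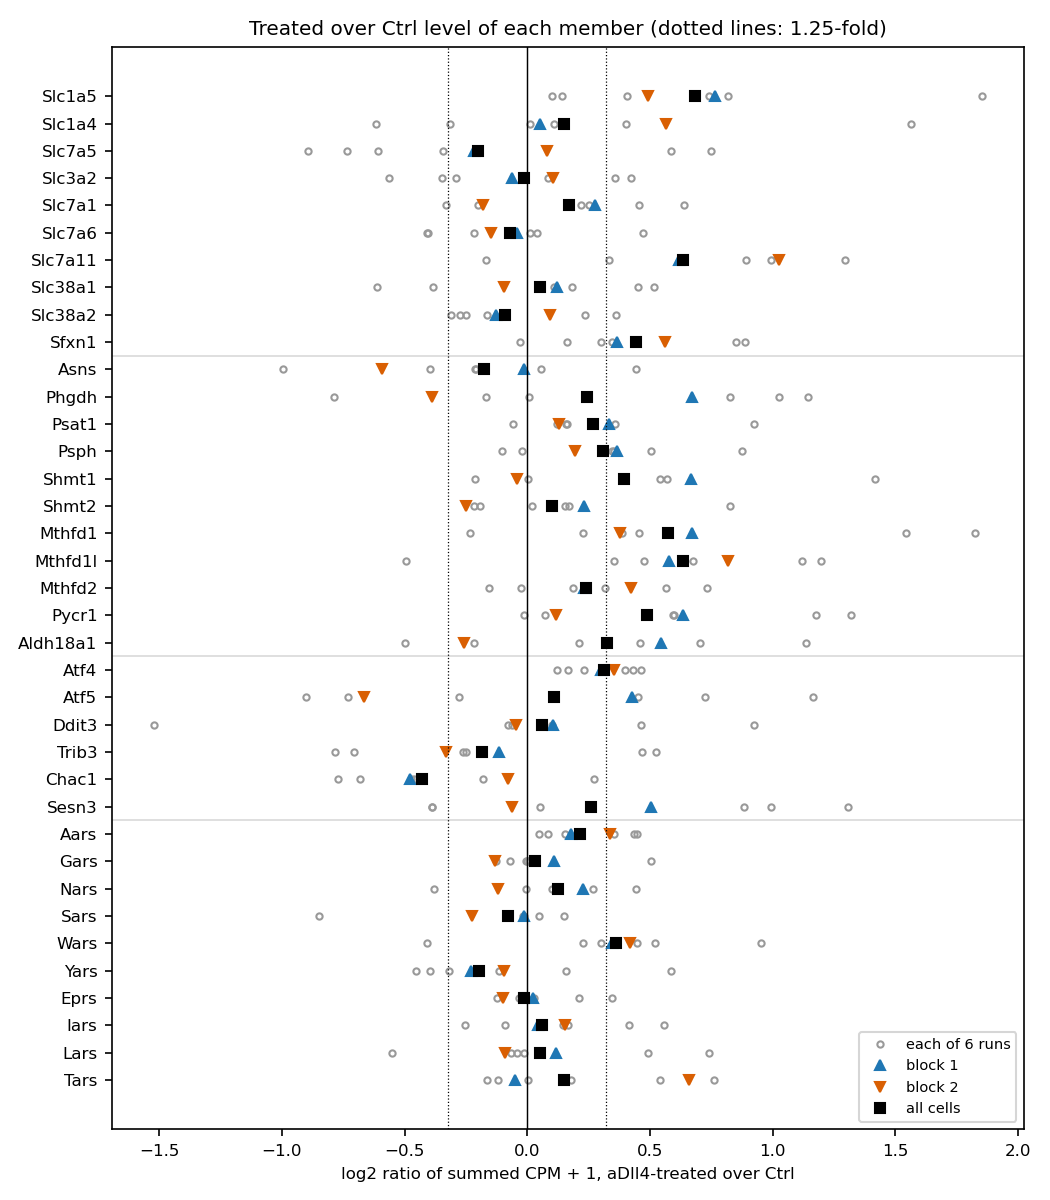
Log2 ratio of treated over Ctrl levels (summed CPM + 1) for each of the 37 genes, with black squares for all cells, triangles for the 2 blocks of library numbers and grey circles for the 6 runs. Dotted lines mark 0.32 in either direction, and grey lines part carriers, enzymes, stress genes and synthetases; Slc1a5, Atf4 and Aars are above 0 in all 6 runs.

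Among the carriers, Slc1a5, the exchanger that brings glutamine and other neutral amino acids into cells, had the largest ratio. Its level per cell ran from 0 to 729 CPM with a median of 12.6 in Ctrl, and from 0 to 724 with a median of 79.99 in treated cells. On the log2(CPM + 1) scale the mean and SD over cells were 3.62 ± 3.19 for Ctrl and 4.92 ± 3.14 for treated, so single cells of the treatments overlapped almost over their whole range. Its reads were found in 66.9% (60.6% to 72.9%) and 79.9% (74.3% to 84.8%) of Ctrl and treated cells (exact Clopper-Pearson 95% intervals), and with each cell thinned to 120000 reads in 56.5% and 69.3%. Summed, Ctrl was at 72.7 CPM (71.6 to 73.8) and treated at 117.3 CPM (115.9 to 118.8), for a log2 ratio of 0.68. Run by run, Ctrl levels were 115.5, 79.5, 77.8, 46.7, 64.6 and 45.4 CPM, and treated levels 127.3, 133.7, 83.5, 171.4, 85.95 and 80.8 CPM. The treated level was the higher of the pair in all 6 runs, although the ranges of the treatments overlapped. The ratio was 0.78 in cluster 1, 1.06 in cluster 2 and 0.08 in cluster 3.

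Sfxn1, a carrier that takes serine into mitochondria, went from 76.3 CPM in Ctrl to 104.2 CPM with treatment, with a log2 ratio of 0.44 that was above 0 in 5 of 6 runs. Slc7a11, which imports cystine in exchange for glutamate, was scarce, at 3.80 CPM (3.54 to 4.06) and 6.45 CPM (6.11 to 6.79). Its ratio of 0.63 stood beside equal shares of cells with a read (31.8% and 31.6%), and the highest single cells were at 133.01 CPM (Ctrl) and 331.8 CPM (treated). Slc7a5 and Slc3a2, the light and heavy chains of a carrier of large neutral amino acids, differed little between treatments (log2 ratios -0.20 and -0.01). The other 5 carriers lay between -0.09 and 0.17.

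Mthfd1l and Mthfd1 had the largest ratios of the enzymes. Mthfd1, which interconverts folate one-carbon units in the cytosol, stood at 54.9 CPM (53.9 to 55.9) for Ctrl and 82.2 CPM (81.02 to 83.4) for treated, with a log2 ratio of 0.57. Its Ctrl levels over the runs were 27.2, 55.1, 84.01, 25.4, 63.9 and 71.2 CPM, and its treated levels 81.1, 72.4, 71.2, 92.4, 74.9 and 98.1 CPM. Treated was the higher in 5 of 6 runs, and Ctrl in run 3. Mthfd1l, the mitochondrial formyl-tetrahydrofolate synthetase, was at 48.4 and 75.8 CPM, a ratio of 0.64, with median single-cell levels of 7.72 and 31.4 CPM. Mthfd1l too was lower in treated than in Ctrl cells of run 3. Pycr1, which completes proline synthesis, was at 12.3 and 17.6 CPM, a ratio of 0.49, with reads in 58 Ctrl and 61 treated cells. Shmt1 and Aldh18a1 were also past the fold over all cells (0.39 and 0.33) but changed sign in block 2 (-0.04 and -0.26).

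The enzymes of serine and asparagine synthesis differed less. Phgdh, the first enzyme of serine synthesis, was at 28.03 and 33.4 CPM (ratio 0.24), with 0.67 in block 1 and -0.39 in block 2. A pseudogene named after it, Phgdh-ps1, is annotated, and counting could have split reads between the copies. Psat1, the next enzyme, was at 183.8 and 221.3 CPM (0.27), higher with treatment in 5 of 6 runs, and Psph, the last, had a ratio of 0.31. Shmt2, which makes one-carbon units from serine in mitochondria, had a ratio of 0.10, and Mthfd2, which follows it, 0.24. Asns, asparagine synthetase and a standard readout of ATF4, was slightly lower with treatment, at 245.9 CPM (243.8 to 247.9) and 217.6 CPM (215.6 to 219.5), a ratio of -0.18 that came to -0.01 in block 1 and -0.59 in block 2.

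Of the stress genes, Atf4 itself was read in 97.9% and 98.4% of the cells of Ctrl and treated, at single-cell medians of 343 CPM (0 to 1459) and 404 CPM (0 to 2199). The summed levels were 408 CPM (405 to 411) and 508 CPM (505 to 511), or 0.31 as a log2 ratio, just under the fold. Over the runs Ctrl levels were 511, 377, 422, 383, 360 and 454 CPM and treated levels 574, 497, 569, 451, 496 and 494 CPM, so treated was the higher in all 6. Chac1, an enzyme that breaks down glutathione and a late ATF4 target, was the one gene of the 37 past the fold and lower, at 73.3 and 54.2 CPM (-0.43), with shares of cells read of 43.9% (37.5% to 50.5%) and 33.6% (27.7% to 39.9%). It was lower in 5 of 6 runs. Ddit3, the pro-apoptotic factor CHOP, had a ratio of 0.06, Trib3, a pseudokinase that restrains ATF4, -0.18, and Sesn3, a sestrin, 0.26. Atf5, a factor related to ATF4, was near the limit of reading, at 1.20 and 1.37 CPM. A higher level of the Atf4 transcript thus stood beside target genes that differed in direction; reads of a transcript do not show how much ATF4 protein was made.

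Wars, the tryptophan synthetase, was the one synthetase past the fold, at 107.3 and 138.2 CPM (0.36; higher in 5 of 6 runs), and Aars, the alanine synthetase, was higher in all 6 runs at a ratio of 0.22. With Slc1a5 and Atf4 it made up the 3 genes of the 37 higher in all 6 runs, against 2.46% of all genes, and 0 of the 37 were lower in all 6, against 2.09%. The other 8 synthetases lay between -0.20 and 0.15.

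**Figure D2:**
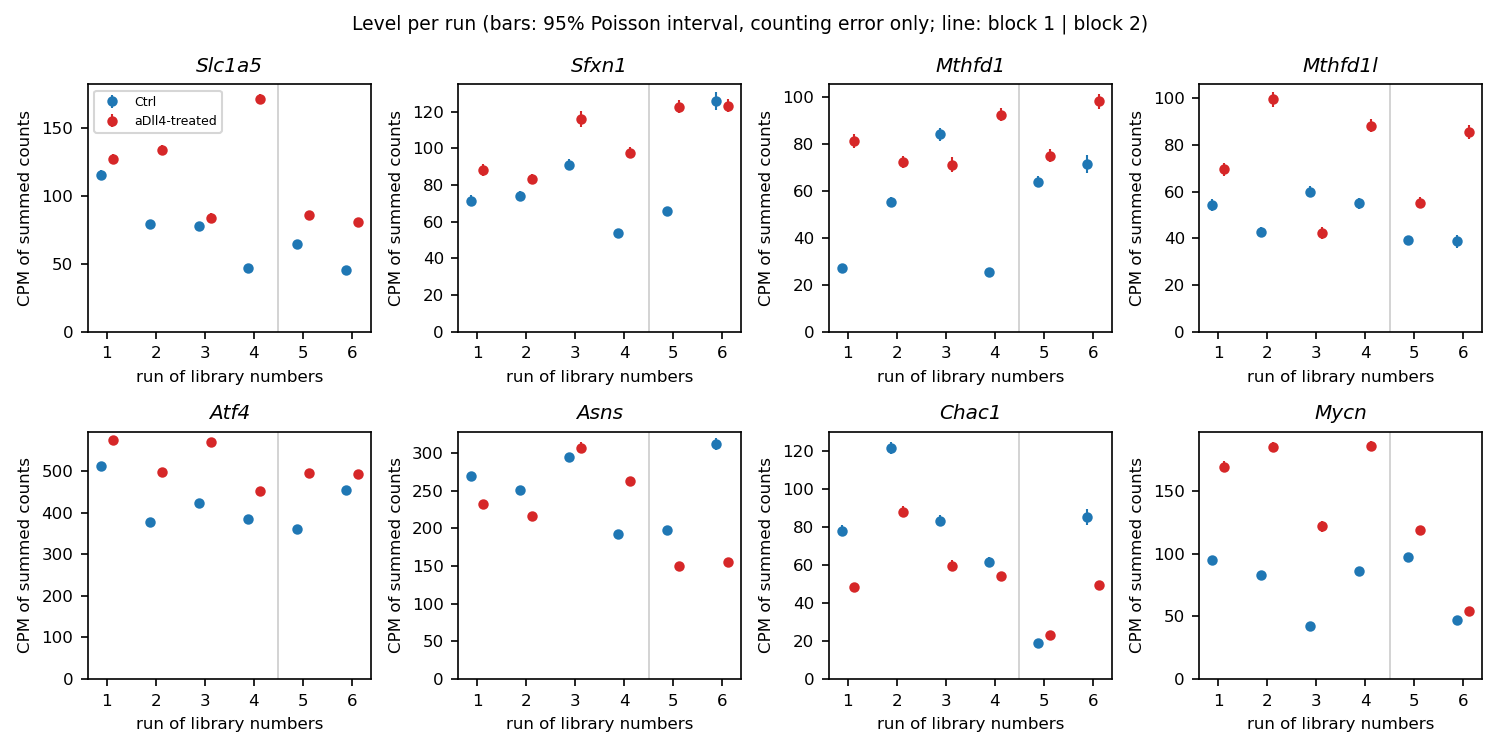
Summed level in CPM (from 0) of 8 genes in each of the 6 runs of library numbers, Ctrl in blue and treated in red, with 95% Poisson intervals for counting error and a line between the blocks. Treated Atf4 and Slc1a5 are above Ctrl in every run, Asns in 2 of 6 runs and Chac1 in 1 of 6.

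Ratios were then taken within the cells of a cluster, of a block, or of cells of like sex. Within clusters 1 to 3 together, 9 of the 37 genes were past the fold and higher (11.1% of all genes) and 2 lower (15%), with a median of 0.079. Slc1a5 (0.76), Slc7a11 (0.77), Mthfd1 (0.76), Mthfd1l (0.59) and Sfxn1 (0.44) were past the fold there, as they were over all cells. By single cluster the counts higher and lower were 9 and 2 in cluster 1 (16.1% and 20.8%), 10 and 6 in cluster 2 (19.6% and 21%), and 11 and 6 of 36 in cluster 3 (32.9% and 30.7%). In block 1, 14 were higher (13%) and 1 lower (14.9%), and in block 2, 11 were higher (22%) and 4 lower (21.8%), with medians of 0.23 and -0.043. Among the Y-positive cells of block 1, 23 were higher (22%) and 0 lower (18.2%), with a median of 0.45. Hematopoietic clusters were unevenly spread there too, since 2 Ctrl and 20 treated cells of that group were in clusters 6 and 7, and hematopoietic markers had a median ratio of 3.03. Restricted to clusters 1 to 3, the same cells had 21 higher (18.6%) and 1 lower (19%), with a median of 0.34. Among the Xist-positive cells of block 2, 10 were higher (28.3%) and 9 lower (25%), with a median of 0.077. Of these cells, 2 Ctrl and 8 treated were in clusters 6 and 7, and the median ratio was 1.10 for hematopoietic and 2.59 for mesenchymal markers. In their clusters 1 to 3, 14 were higher (30%) and 12 lower (27.5%), with a median of -0.062.

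The sign therefore held for some genes and not for others. Slc1a5 had ratios of 1.23 and 0.61 in the Y-positive and the Xist-positive cells, Mthfd1 1.16 and 0.56, Mthfd1l 0.78 and 0.95, Sfxn1 0.76 and 0.77, and Atf4 0.54 and 0.41. Chac1 turned to 0.97 in the Y-positive cells of block 1 and stayed at -0.85 in the Xist-positive cells of block 2. Within Ctrl, where no treatment differs, Xist-positive cells of block 1 were past the fold above Y-positive ones for 19 of the 37 genes (22.5%) and below for 0 (17.4%), with a median of 0.32. Hematopoietic markers were higher there as well, 5 of the 5 that passed the filter being past the fold (median 1.59), and 7 Xist-positive against 2 Y-positive cells were in clusters 6 and 7. In Ctrl of block 2 the counts were 11 (28.4%) and 8 (30.2%), with a median of 0.044. Slc1a5 differed by 0.83 and -0.40 in these comparisons and Chac1 by 2.07 and 1.48. Differences between untreated cells of one block thus reached the size of those between treatments, and embryo, sex, the mix of clusters and treatment cannot be told apart over all cells.

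The enzymes and synthetases were at higher levels in clusters 6 and 7, which had hematopoietic markers, than in clusters 1 to 3. The authors built the clusters from these cells, so the values are a description. Against clusters 1 to 3, 26 of the 37 genes were past the fold and higher in clusters 6 and 7, as were 36.9% of all genes, and 5 were lower, as were 35.4%. The median log2 ratio was 0.80, against 0.071 over all genes. The enzymes accounted for 11 of the 26 (all 11 of the group; median 1.58, from 0.93 to 2.47), and were all past the fold in Ctrl cells alone, in treated cells alone and in each block. The 10 synthetases were all higher as well (median 0.77, from 0.34 to 1.19), with 9 of 10 past the fold in Ctrl cells alone and in block 2. In cluster 7 alone, 10 of 11 enzymes and 7 of 10 synthetases were past it. Higher levels of enzymes were not confined to clusters 6 and 7. In clusters 4 and 5 over 1 to 3, 6 of 11 enzymes were past the fold and higher, and 2 were lower. Pycr1 (1.82), Shmt1 (1.74) and Phgdh were among those higher, and Mthfd1l (-0.88) and Asns (-0.34) were lower. Of the 10 synthetases, 2 were higher and 1 lower there. Of the carriers in clusters 6 and 7 together, 3 were higher (Sfxn1, Slc1a5 and Slc38a1) and 3 lower (Slc7a5, Slc7a11 and Slc38a2). Slc7a5, at -0.46, was at -0.24 within treated cells and 0.20 within block 2.

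Phgdh led the enzymes. Over the 395 cells of clusters 1 to 3 it ran from 0 to 217.03 CPM with a median of 0, and over the 53 cells of clusters 6 and 7 from 0 to 271 with a median of 104.2. Summed, it was at 17.6 CPM (17.2 to 18.1) and 101.9 CPM (99.2 to 104.6), which is 2.47 on the log2 scale, and the share of cells with a read was 43.5% and 90.6%, or 34.9% and 88.7% after thinning. Psph, the last enzyme of serine synthesis, was at 22.03 and 90.8 CPM (2.00), Psat1 at 156.7 and 520 CPM (1.73), Shmt2 at 142.7 and 429.6 CPM (1.58) and Mthfd1 at 49.6 and 191.03 CPM (1.92). Every enzyme of the group from serine synthesis to one-carbon units was thus at a higher level in clusters 6 and 7. Asns was at 197.4 and 507 CPM (1.36), and Sfxn1 at 68.9 and 221.7 CPM (1.67). Clusters 6 and 7 also carried more cell cycle transcripts, with 9 of 9 S phase genes past the fold (median 0.69), and 5 of 6 G2 and M phase genes (median 0.64), and their part in these ratios was not tested.

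The stress genes and carriers divided. Ddit3 was at 14.9 CPM in clusters 1 to 3 and 80.5 CPM in clusters 6 and 7 (2.35), and Trib3 at 50.1 and 122.98 CPM (1.28). In clusters 4 and 5 over 1 to 3, Ddit3 had a ratio of 1.74 and Trib3 of -2.36. Between clusters 1 to 3 and clusters 6 and 7, Atf4 differed by less than the fold, at 442 and 543 CPM. Sesn3 was read in 39.7% of the cells of clusters 1 to 3 (11.3 CPM) and in 1.89% of those of clusters 6 and 7 (0.31 CPM). Slc38a2, a sodium-coupled carrier of small neutral amino acids whose gene responds to amino acid shortage, was at 353 and 141.2 CPM (-1.32), and Slc7a11 at 5.81 and 1.74 CPM (-1.31). Chac1 was at 72.1 and 35.4 CPM, a ratio of -1.01 that was -2.74 within Ctrl and -0.26 within treated cells. Not all known ATF4 targets were thus at a higher level in these clusters.

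The clusters with endothelial markers also differed among themselves. Slc7a5 was at 89.4 CPM in cluster 1, 34.1 in cluster 2 and 14.7 in cluster 3, and its partner Slc3a2 at 585, 388 and 311 CPM. Phgdh ran the other way, at 12.7, 17.2 and 35.9 CPM, and Shmt1 at 13.8, 32.04 and 65.7 CPM. Cluster 3 had the lowest level of Mthfd2 of all 7 clusters, at 52.1 CPM against 150.2 in cluster 1 and 289 in cluster 7. The share of cells in clusters 6 and 7 was 9.21% of Ctrl (5.86% to 13.6%, exact Clopper-Pearson interval) and 12.7% of treated cells (8.80% to 17.5%), and these intervals overlap. Within clusters 6 and 7, 11 of the 36 genes that passed the filter there were past the fold and higher with treatment (29.1%) and 3 lower (23.6%), with a median of 0.044. Phgdh (-0.06), Psat1 (-0.10) and Asns (-0.14) were close to 0 there.

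**Figure D3:**
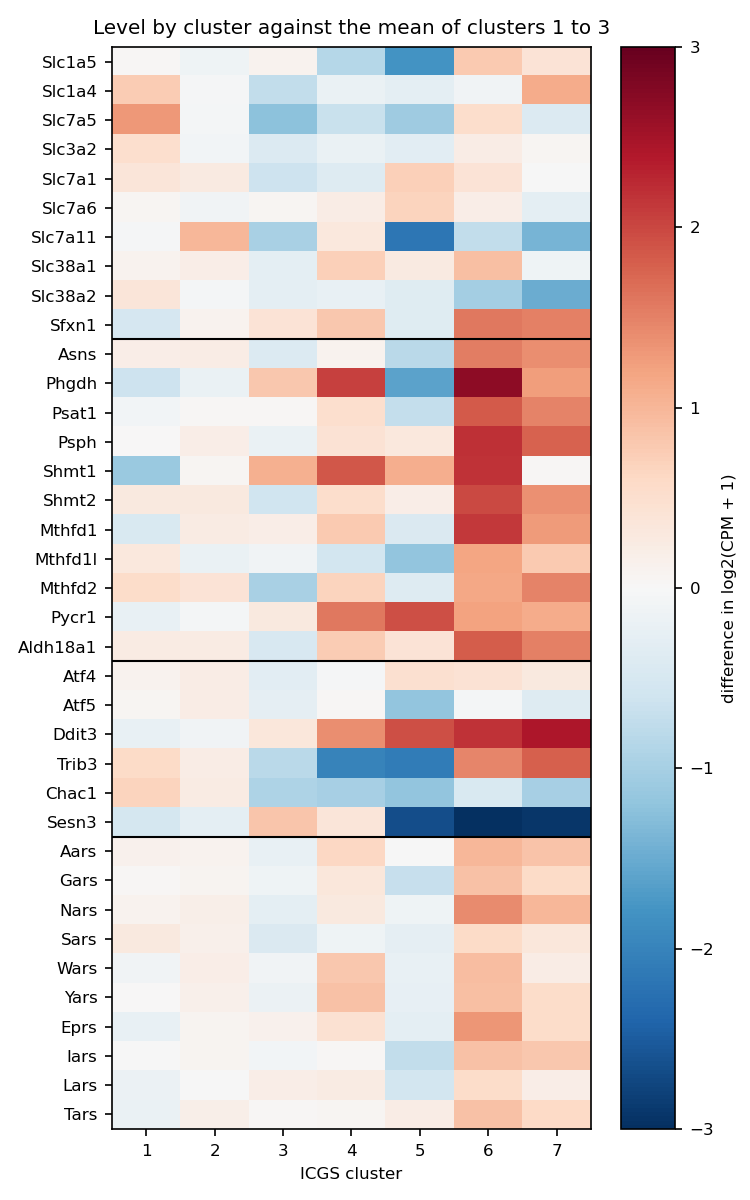
Level of each of the 37 genes in each of the 7 ICGS clusters, as the difference in log2(CPM + 1) from the mean of clusters 1 to 3 (red higher, blue lower). The enzymes and synthetases are mostly red in clusters 6 and 7, while Sesn3 and Slc38a2 are blue. In cluster 7 over 1 to 3, Shmt1 (0.18), Sars (0.19), Wars (0.22) and Lars (0.25) had log2 ratios below 0.32.

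Mycn summed to 77.8 CPM (76.6 to 78.9) over Ctrl and 142.4 CPM (140.9 to 144.03) over treated cells. That is 0.86 on the log2 scale, with 1.16 in block 1 and 0.07 in block 2. Whether the 37 genes went with Mycn in the same cell was described by Spearman's rho of log2(CPM + 1) within 12 strata of treatment, block and cluster 1, 2 or 3, averaged over the strata (395 cells). The points share library depth, so each value stands beside that over all genes. The median rho was 0.10 for the 37 genes, from -0.03 for Slc38a1 to 0.22 for Eprs, and 36 of 37 were above 0. Most of all 13415 genes were above 0 as well. Their median was 0.050, with 0.089 at the 75th and 0.146 at the 95th percentile. With cells thinned to 120000 reads the medians were 0.11 and 0.035, and against depth itself 0.11 and 0.12. Among genes read in most cells, the median rho with Mycn was 0.12 for 27 of the 37 and 0.062 for 6983 of all genes. Psat1 (0.21), Mthfd1l (0.18) and Sars (0.17) followed Eprs. Such weak correlations in sparse counts are no finding of a link to Mycn. Against Myc in place of Mycn the median was 0.035, below the 0.046 of all genes. Against the level of the S phase genes it was 0.13, with 0.060 for all genes. There 7 of the 37 reached 0.2, but the 95th percentile of all genes was itself at 0.219. With Mycn 2 of the 37 reached 0.2, where that percentile was at 0.146. In clusters 6 and 7 over 1 to 3, Mycn had a log2 ratio of -0.42 (-0.63 in block 1, 0.11 in block 2) and Myc 2.51.

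**Figure D4:**
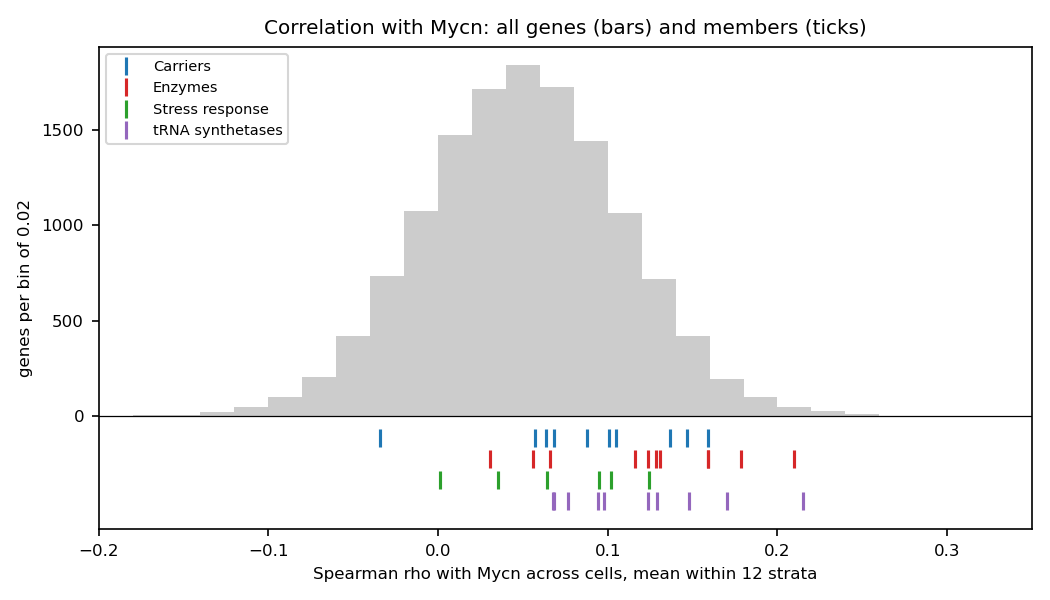
Mean within-stratum Spearman rho with Mycn for all genes (grey bars, genes per bin of 0.02) and for the 37 genes (ticks, coloured by group). The median of the 37 genes is 0.10 and that of all genes 0.050.

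The 37 genes were also compared with each other across the same cells and strata. Over their 666 pairs the median rho within strata was 0.13, against 0.036 for pairs of all genes (every 5th gene). For genes read in at least 50% of cells the medians were 0.16 and 0.053. The highest were Mthfd2 with Nars (0.49), Gars with Nars (0.48), Asns with Mthfd2 (0.46), Asns with Nars (0.44) and Asns with Gars (0.44). After thinning the first was 0.45, and it was 0.57 in block 1 and 0.27 in block 2. By group, the median was 0.21 among synthetases and between enzymes and synthetases, 0.17 among enzymes, 0.11 among stress genes and 0.097 among carriers. Slc7a5 and Slc3a2, the chains of one carrier, reached 0.38. Mthfd2, whose own start region held no CARE letters, had rho of 0.46, 0.41 and 0.35 with Asns, Gars and Chac1, which carry them. Its values with the other genes that carry the letters are not given here. The 21 pairs among the 7 genes with the CARE letters had a median of 0.18, and the 276 pairs among the 24 genes without 0.12. For the E-box letters the 3 pairs among genes with them had a median of 0.21, and the 378 pairs without 0.12. These medians were not matched for the share of cells with a read. With respect to treatment the genes with and without the CARE letters had medians of 0.15 and 0.16. For clusters 6 and 7 over 1 to 3 their medians were 0.80 and 0.94.

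**Figure D5:**
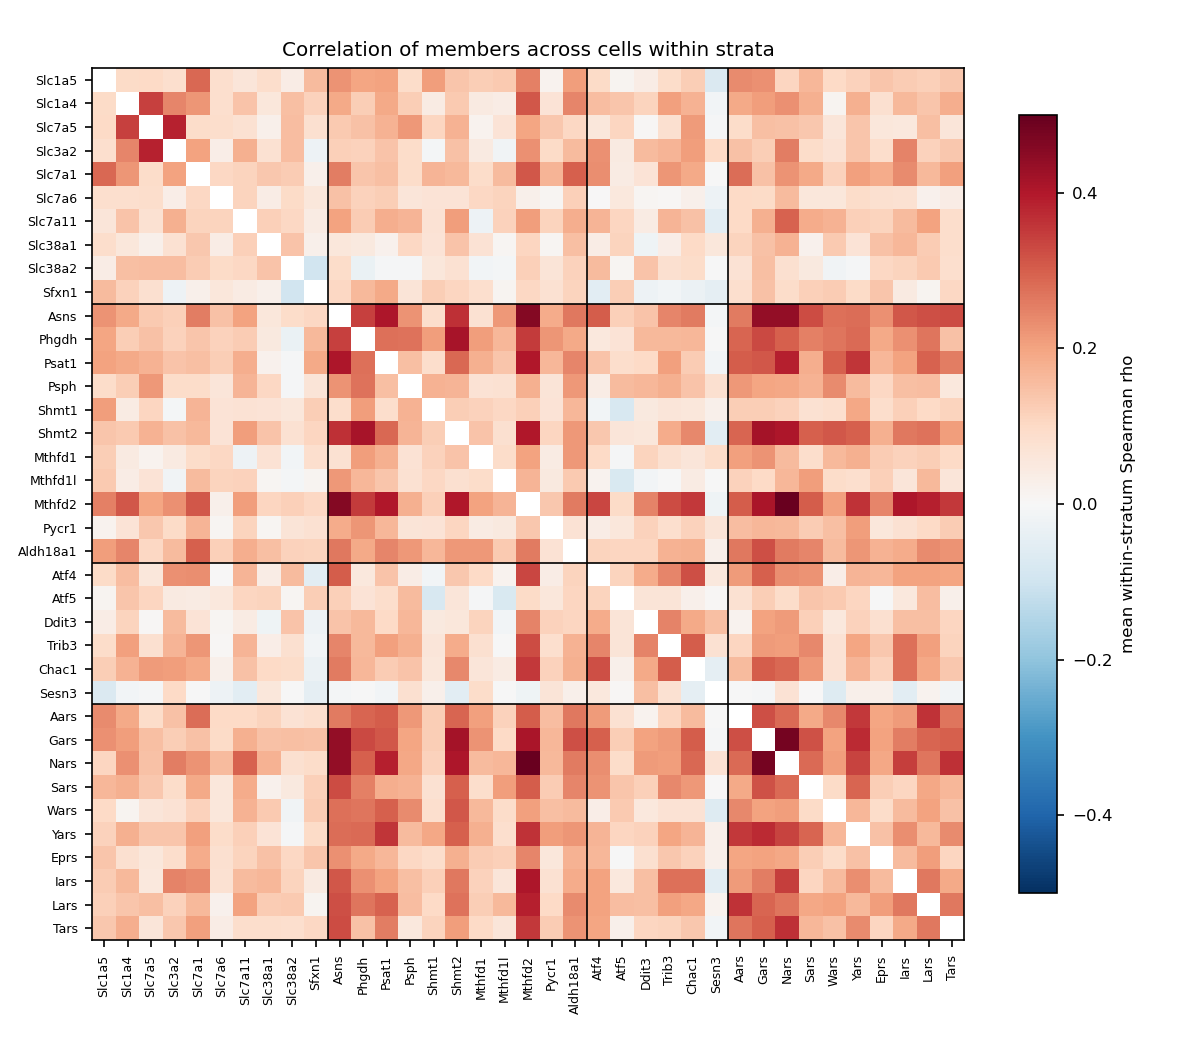
Mean within-stratum Spearman rho for each pair of the 37 genes across 395 cells (red above 0, blue below), ordered by group. The darkest squares join Asns, Shmt2, Mthfd2, Gars and Nars, with Mthfd2 and Nars highest at 0.49.

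Further genes of the pathway came from lists of other synthetases, stress factors, carriers and enzymes, and their counts with treatment stand against 10.8% of all genes higher and 12.7% lower. Of 13 other cytosolic synthetases and scaffold proteins, 3 were past the fold and higher with treatment and 0 lower (median 0.058): Hars (0.49) and Aimp2 (0.43), each higher in 6 of 6 runs, and Eef1e1 (0.37). All 13 were past the fold and higher in clusters 6 and 7 over 1 to 3 (median 0.89), as were 13 of 17 mitochondrial synthetases and 36.9% of all genes. Another 2 mitochondrial synthetases were past it and lower, as were 35.4% of all genes. The other lists divided between these clusters. Of 17 stress factors 4 were higher and 7 lower (median -0.13), and of 16 other carriers 4 and 10 (median -0.52). Of 17 other enzymes 10 were higher and 4 lower (median 0.46). Of the 17 mitochondrial synthetases, 2 were higher and 2 lower with treatment, close to the shares of all genes (median 0.046), and Fars2 (0.71) and Iars2 (-0.61) marked the ends. Of 17 eIF2 kinases, phosphatases and stress factors, 2 were higher and 0 lower (median 0.057), among them Atf3 (0.33). Of 16 other carriers that passed the filter, 3 were higher, Slc7a3 (1.26), Slc6a9 (0.75) and Slc1a3 (0.72), and 3 lower (median -0.14). Of 17 other enzymes that passed, 2 were higher, among them Got1 (0.35), and 1 was lower (median -0.0053).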

How the data were processed

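The table deposited by the authors has raw counts, whole numbers of reads for each gene in each cell. It was made on mm10 with GSNAP and HTSeq 0.6.0, per the submitters' processing notes, while the sources used here give no annotation release, counting setting or cell filter. Smart-seq2 reads do not mark the strand. Symbols and exon lengths came from GENCODE M21 on the same build, with 935 identifiers without a symbol and 112 sharing one. Every column belonged to a labelled cell, no cell was filtered, and doublets were not called.

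Counts were summed over cells to CPM, with 1 CPM added before log2. A gene entered a comparison with a read in at least 10% of cells of a treatment. Cells with at least 10 reads of Xist or of 4 Y-linked genes, and not of the other, were called by sex. Calculations used Python 3.11.15, numpy 2.4.6, scipy 1.17.1 and pandas 2.3.3; edgeR 4.0.16 in R 4.3.3 gave the TMM factors of an alternative. The summing and correlation steps were tested on simulated data. The genes and lists were chosen with earlier results of these data known. Named with values were genes with a log2 ratio of at least 0.32 in size and the same sign in both blocks, 14 nodes of the pathway whatever their values, and in other lists at most 4 genes by the first rule. Further genes were named after their values were seen. Alternatives changed the scaling, the pseudocount, the filter, the thinning and the cells used.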

Additional observations from a re-analysis of the deposited data

Results flagged for a closer look

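Ratios of opposite sign in different sets of cells drew attention to 3 genes. Phgdh had a log2 ratio of treated over Ctrl of 0.67 in block 1 and -0.39 in block 2. Ddit3 had 0.52 in cluster 1 and -0.56 in cluster 2. Sesn3 had 0.50 in cluster 1 and -0.36 in cluster 2. These differences were not tested, since each treatment is 1 sample, and sex differs between the treatments within each block.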

How the results depend on the processing

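Each treatment result was recomputed under 25 alternatives, of which the restrictions of like-sex cells to clusters 1 to 3 were chosen after seeing the data. The median log2 ratio (0.15) was 0.45 in Y-positive cells of block 1, and turned to -0.043 in block 2 and -0.062 in clusters 1 to 3 of the Xist-positive cells of block 2. The count of genes at least 0.32 higher on the log2 scale (9) was 14 by mean log2 level, 14 in block 1, 23 in Y-positive cells of block 1, 21 in their clusters 1 to 3, and 14 in clusters 1 to 3 of the Xist-positive cells of block 2. The count lower (1) was 2 after thinning, without clusters 6 and 7, within clusters 1 to 3, without run 4 and without run 5. It was 4 in block 2, 0 in Y-positive cells of block 1, 9 in Xist-positive cells of block 2 and 12 in their clusters 1 to 3. Among the 8 named genes past the fold with the same sign in both blocks, signs turned for Chac1 (0.97 and, in clusters 1 to 3, 1.12, in Y-positive cells of block 1), Pycr1 (-0.0072 and, in clusters 1 to 3, -1.17, in Xist-positive cells of block 2) and Wars (-0.48 in the latter clusters). Among the other named genes signs also turned under 1 or more alternatives for Slc7a5, Slc3a2, Asns, Phgdh, Shmt2, Ddit3, Trib3 and Sesn3. The cause was not tested. Slc1a5 (0.41 to 1.40), Mthfd1 (0.38 to 1.16) and Mthfd1l (0.39 to 1.00) were above 0.32 in all 25, and Atf4 (0.24 to 0.55) was above 0 in all 25. The 25 alternatives share many cells, and neither run 3 alone nor cluster 3 alone was among them. In run 3, Mthfd1 and Mthfd1l were lower in treated than in Ctrl cells. In cluster 3, Slc1a5 was below the fold. The median rho with Mycn (0.10) was 0.13 by Pearson, 0.13 with all cells in 1 stratum, 0.12 in Ctrl, 0.12 in block 1 and 0.035 with Myc. No paired analysis was possible because each treatment is 1 sample and no label pairs a treated with a Ctrl cell; the levels run by run are a description. Depth limits genes such as Atf5 and Slc7a11, read in few cells.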
